A study of Mus musculus with 18 samples.

Results

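Phosphodiesterases of striatal neurons are described here by the RNA of 10 genes in the striatum of mice that carry an expanded huntingtin allele, lack 1 allele of protein kinase CK2 alpha prime, or both. The 10 genes, Pde10a, Pde1a, Pde1b, Pde1c, Pde2a, Pde4a, Pde4b, Pde4d, Pde7b and Pde8b, were taken by name from the 55421 genes of the count table, with earlier results of these data known, and all 10 had enough reads to be tested. Total RNA of dissected striatum was sequenced from 18 C57BL/6 mice aged 12 to 14 months, 1 library a mouse. There were 5 WT mice, 5 zQ175 mice, 3 CK2a'(+/-) mice and 5 zQ175:CK2a'(+/-) mice. WT mice carried neither change. zQ175 is a full-length knock-in model of Huntington's disease in which the mouse huntingtin gene holds a long CAG repeat, used here as heterozygotes, and no mouse received a drug. CK2a'(+/-) mice are heterozygous for the loss of Csnk2a2, the gene of CK2 alpha prime, in the whole body, and that line came from a mixed 129/SvEv and C57BL/6 J stock. zQ175:CK2a'(+/-) mice carry both alleles. The labels give neither sex nor a sequencing batch for a library, and the study used females and males in unequal numbers across genotypes. Xist, the RNA of the inactive X chromosome in females, was above 500 CPM (the count scaled by the library's total after TMM normalization) in 4 of 5 WT, 2 of 5 zQ175, 1 of 3 CK2a'(+/-) and 4 of 5 zQ175:CK2a'(+/-) libraries and at most 47.0 CPM in the others. With the Xist level as a covariate, the 3 pooled calls given below stood (Pde10a -0.81, adjusted p = 0.0174; Pde1b -0.70, adjusted p = 0.00963; Pde4d 0.39, adjusted p = 0.0408).

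Phosphodiesterases hydrolyse cAMP and cGMP, the messengers that dopamine, adenosine and nitric oxide raise or lower in striatal neurons, and so they set how long protein kinase A and protein kinase G stay active. PDE10A acts on both nucleotides and is concentrated in the spiny projection neurons, also called medium spiny neurons, which are the cells most affected in Huntington's disease. PDE1 enzymes act on both nucleotides and are switched on by calcium and calmodulin, PDE2A is stimulated by cGMP, and PDE4, PDE7 and PDE8 enzymes are selective for cAMP.

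In the zQ175 mice the transcripts of Pde10a and Pde1b were lower and that of Pde4d was higher when averaged over both CK2a' genotypes, and none of the other 7 genes passed the test. Pde10a fell by 41.2% and Pde1b fell by 37.5%, whereas Pde4d rose by 30.0%, a call that ended under several alternatives. In the single comparison of zQ175 with WT no gene of the 10 passed in edgeR, the main test, while DESeq2 called Pde1b and Pde4d, and 2 WT mice had Pde10a and Pde1b levels as low as the zQ175 mice. Pde1a had its highest mean in zQ175 mice and its lowest in zQ175:CK2a'(+/-) mice, and whether that difference was called depended on the test.

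The promoters of Pde10a and Pde1b are shown because these genes had the 2 largest falls among the 10 and rose and fell together over the libraries. The sequences are from RefSeq on GRCm38.p6 and lie before the most upstream RefSeq start of each gene, written 5′ to 3′ on the gene's own strand, with GC boxes (GGGCGG or its reverse complement) in capitals. Pde10a, at chr17:8801495-8801692 on the plus strand, is cut where an annotated exon begins. Pde1b, at chr15:103502784-103503033 on the plus strand, is the full window of 250 bases before the start. The counted Pde10a gene begins further upstream, at chr17:8525372, so the Pde10a stretch lies inside that gene. Which start was used in striatum was not tested.
Pde10a: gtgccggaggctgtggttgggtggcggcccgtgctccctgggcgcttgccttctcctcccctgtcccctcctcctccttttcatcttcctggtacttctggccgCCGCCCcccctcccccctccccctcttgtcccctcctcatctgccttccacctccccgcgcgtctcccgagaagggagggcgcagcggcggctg
Pde1b: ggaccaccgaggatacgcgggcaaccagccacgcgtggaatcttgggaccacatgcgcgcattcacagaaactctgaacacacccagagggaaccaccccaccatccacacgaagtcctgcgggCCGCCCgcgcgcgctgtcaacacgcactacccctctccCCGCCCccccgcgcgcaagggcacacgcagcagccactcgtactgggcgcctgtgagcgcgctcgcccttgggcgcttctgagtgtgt
The Pde10a stretch held 1 GC box and the Pde1b stretch held 2. All 10 genes had RefSeq starts, 31 windows in all. Of those windows 7 held a GC box, against 32.7% of the 32851 windows of all genes. By gene, 5 of the 10 had a GC box in a window, against 35.4% of all genes. The 10 had more windows a gene than all genes had, and some windows of a gene overlap. The cAMP response element TGACGTCA, searched on both strands, was in 0 of the 31 windows and in 1.55% of all windows. Its core TGACG lies inside the full element. It was in 3 of the 31 windows, 1 each of Pde1a, Pde4a and Pde4b, and in 17.8% of all windows. By gene that was 3 of the 10, against 19.8% of all genes. A match of letters is a description and not a binding site.

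Total counts ranged from 13612381 to 22702547 a library, and log2 CPM correlated between libraries of a group with r between 0.950 and 0.972. Csnk2a2 ranged from 14.7 to 19.9 CPM in the 8 mice with 1 allele and from 29.4 to 37.5 CPM in the 10 mice with 2 alleles, as the labels say. All 9 markers of striatal projection neurons were detected in every library, so the tissue carried its labelled cell type. Their summed level was uneven, from 2293 to 4788 CPM in WT, where replicates 4 and 5 had the 2 lowest sums (2334 and 2293 CPM), and from 1185 to 2410.2 CPM in zQ175, where replicate 1 was the lowest. zQ175 replicate 1 also had the highest thalamic neuron sum of the 18 libraries (825 CPM, against 19.1 to 361 CPM in the others), and zQ175 replicate 5 had the highest cortical excitatory neuron sum (402 CPM). Choroid plexus markers were at 959 to 3056 CPM in 4 libraries, WT replicates 1 and 3, CK2a'(+/-) replicate 1 and zQ175:CK2a'(+/-) replicate 2, and at 4.75 to 15.7 CPM in the rest. The pooled calls are also given without these 2 zQ175 libraries.

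Per length of exon, 2 of the 10 genes held most of the phosphodiesterase RNA of the striatum. In WT mice Pde1b stood first at 110.1 ± 36.7 CPM per kilobase (SD, n = 5) and Pde10a second at 86.3 ± 42.7, a gap smaller than either SD, although Pde1b was above Pde10a in each of the 18 libraries (ratio of Pde10a to Pde1b at most 0.963). Pde7b (16.6 ± 5.17), Pde8b (14.2 ± 3.83) and Pde4b (11.0 ± 1.75) followed, each within 1 SD of its neighbour, and then Pde4a at 8.87 ± 0.413 and Pde1a at 7.15 ± 0.584, which lay further apart than their SDs. Pde4d (3.84 ± 0.428), Pde1c (3.02 ± 0.960) and Pde2a (2.64 ± 0.539) had the lowest values of the 10, and the place of Pde2a is uncertain, as given below. Of the summed per-length level of 21 genes for catalytic phosphodiesterases, the 10 held 92.2% ± 2.02 in WT, 90.4% ± 1.55 in zQ175, 93.5% ± 1.40 in CK2a'(+/-) and 91.2% ± 1.35 in zQ175:CK2a'(+/-). The summed level itself was 284 ± 91.1 CPM per kilobase in WT, 213 ± 33.2 in zQ175, 345 ± 46.3 in CK2a'(+/-) and 228 ± 17.0 in zQ175:CK2a'(+/-). The PDE4 genes Pde4a, Pde4b and Pde4d together made up 8.89% ± 2.21 of that sum in WT, 11.9% ± 2.49 in zQ175, 6.96% ± 0.970 in CK2a'(+/-) and 10.7% ± 1.34 in zQ175:CK2a'(+/-).

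**Figure D1:**
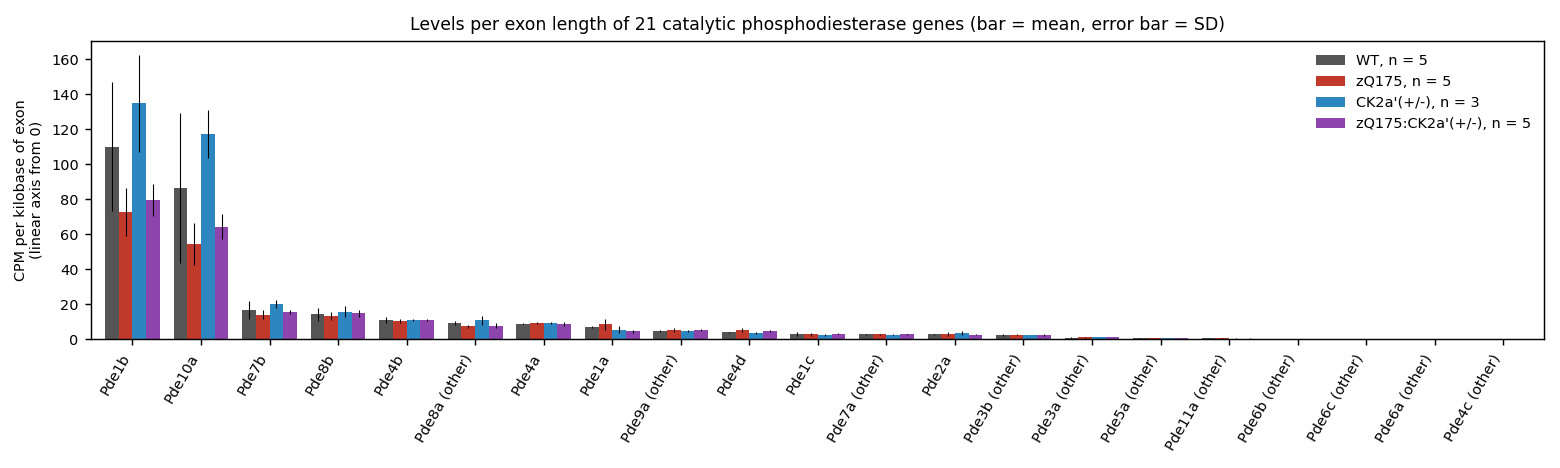
Mean level per exon length (y axis, CPM per kilobase, linear from 0) of 21 catalytic phosphodiesterase genes (x axis, ordered by the WT mean; the 11 genes outside the 10 are marked "other"), with bars for the 4 genotypes and error bars for 1 SD. Pde1b at 110.1 and Pde10a at 86.3 in WT stand far above Pde7b at 16.6, and both are lower in the zQ175 genotypes.

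Pde2a and Pde8b carry a limit of the annotation. Of the 6149 exon bases of Pde2a, 3955 (64.3%) are shared with a read-through gene on the same strand, Gm45837, which itself had 19 counts over the 18 libraries. How the counting treated reads in shared bases is not given in the sources used here, so the per-length level of Pde2a is uncertain. Pde8b shares 447 exon bases (7.6%) with the antisense gene Gm48420, and whether counting used strand is not stated. The other 8 genes shared no exon base with another gene.

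Pde10a (ENSMUSG00000023868, chr17:8525372-8986648 on GRCm38) showed the widest spread between WT mice. Its levels in WT replicates 1 to 5 were 1197, 1971, 1109, 662 and 606 CPM. In zQ175 they were 450, 823, 710, 836 and 679 CPM. The zQ175 values lay inside the lower part of the WT range, except replicate 1, which was below every WT mouse. In CK2a'(+/-) the levels were 1377, 1437 and 1707 CPM, and in zQ175:CK2a'(+/-) they were 905, 843, 789, 909 and 688 CPM. Here every zQ175:CK2a'(+/-) mouse lay below every CK2a'(+/-) mouse, with no overlap.

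For Pde10a the log2 fold change of zQ175 against WT was -0.66 (SE 0.23, edgeR adjusted p = 0.188), and that of zQ175:CK2a'(+/-) against CK2a'(+/-) was -0.87 (SE 0.26, adjusted p = 0.196), neither past the threshold of 0.1. Their average, the zQ175 allele pooled over CK2a' genotype, was -0.77 (SE 0.17, 95% interval -1.12 to -0.41, adjusted p = 0.0221). The pooled change kept its call when any 1 of the 18 libraries was left out, with values from -0.84 to -0.63, and without zQ175 replicates 1 and 5 together it was -0.68 (adjusted p = 0.0519). Without WT replicate 5 the change of zQ175 against WT was -0.82 (adjusted p = 0.0972), and without WT replicate 2 it was -0.37.

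Pde1b (ENSMUSG00000022489, chr15:103503034-103530052) is the most abundant of the calmodulin-activated enzymes here, and its WT mice stood in the same order as for Pde10a. WT replicates 1 to 5 had 672, 877, 607, 414 and 399 CPM, and zQ175 had 264, 404, 440, 439 and 417 CPM. WT replicates 4 and 5 were level with 4 of the 5 zQ175 mice, and only zQ175 replicate 1 stood below every WT mouse. CK2a'(+/-) mice had 656, 627 and 899 CPM and zQ175:CK2a'(+/-) mice had 475, 403, 410, 485 and 374 CPM, again without overlap between these groups. The pooled log2 fold change was -0.68 (SE 0.14, 95% interval -0.96 to -0.40, adjusted p = 0.0120), with values from -0.74 to -0.59 when 1 library was left out and -0.61 (adjusted p = 0.0233) without zQ175 replicates 1 and 5. Against WT the zQ175 change was -0.60 (SE 0.18), with adjusted p = 0.138 by edgeR and 0.0888 by DESeq2, the study's tool. Within CK2a'(+/-) mice it was -0.76 (SE 0.20), with adjusted p = 0.138 by edgeR and 0.0914 by DESeq2.

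Pde7b (ENSMUSG00000019990, chr10:20398004-20725078), a cAMP-selective enzyme, had 203, 315, 198, 149 and 168 CPM in WT replicates 1 to 5 and 121, 197, 193, 197 and 157 CPM in zQ175. Its level in CK2a'(+/-) was 254, 219 and 272 CPM, above all 5 zQ175:CK2a'(+/-) mice, at 195, 216, 186, 196 and 176 CPM. The pooled log2 fold change was -0.31 (SE 0.12, edgeR adjusted p = 0.193), which did not pass, and it did pass without WT replicate 4 (-0.35, adjusted p = 0.0982) and with no filter on low counts (-0.31, adjusted p = 0.0803).

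Pde4d (ENSMUSG00000021699, chr13:108449948-109953461), a cAMP-selective enzyme of many splice forms, went the other way. WT mice had 39.5, 43.7, 44.9, 52.4 and 50.0 CPM, and zQ175 mice had 83.9, 55.3, 57.3, 60.1 and 46.5 CPM. All zQ175 mice except replicate 5 lay above every WT mouse. CK2a'(+/-) mice had 47.7, 47.3 and 36.4 CPM, below all zQ175:CK2a'(+/-) mice at 53.0, 52.3, 60.7, 49.4 and 66.8 CPM. The pooled log2 fold change was 0.38 (SE 0.10, 95% interval 0.17 to 0.59, adjusted p = 0.0503). It was 0.31 (adjusted p = 0.0609) without zQ175 replicate 1, the library with the highest Pde4d and the highest thalamic sum, and 0.34 (adjusted p = 0.0423) without zQ175 replicates 1 and 5. The call was lost without WT replicate 1 (0.34, adjusted p = 0.112), without CK2a'(+/-) replicate 3 (0.32, adjusted p = 0.189) and with a replicate block (0.37, adjusted p = 0.118), and it did not reach FDR 0.05. Against WT alone the zQ175 change was 0.39 (SE 0.13), with adjusted p = 0.171 by edgeR and 0.0935 by DESeq2, and it was 0.25 without zQ175 replicate 1.

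**Figure D2:**
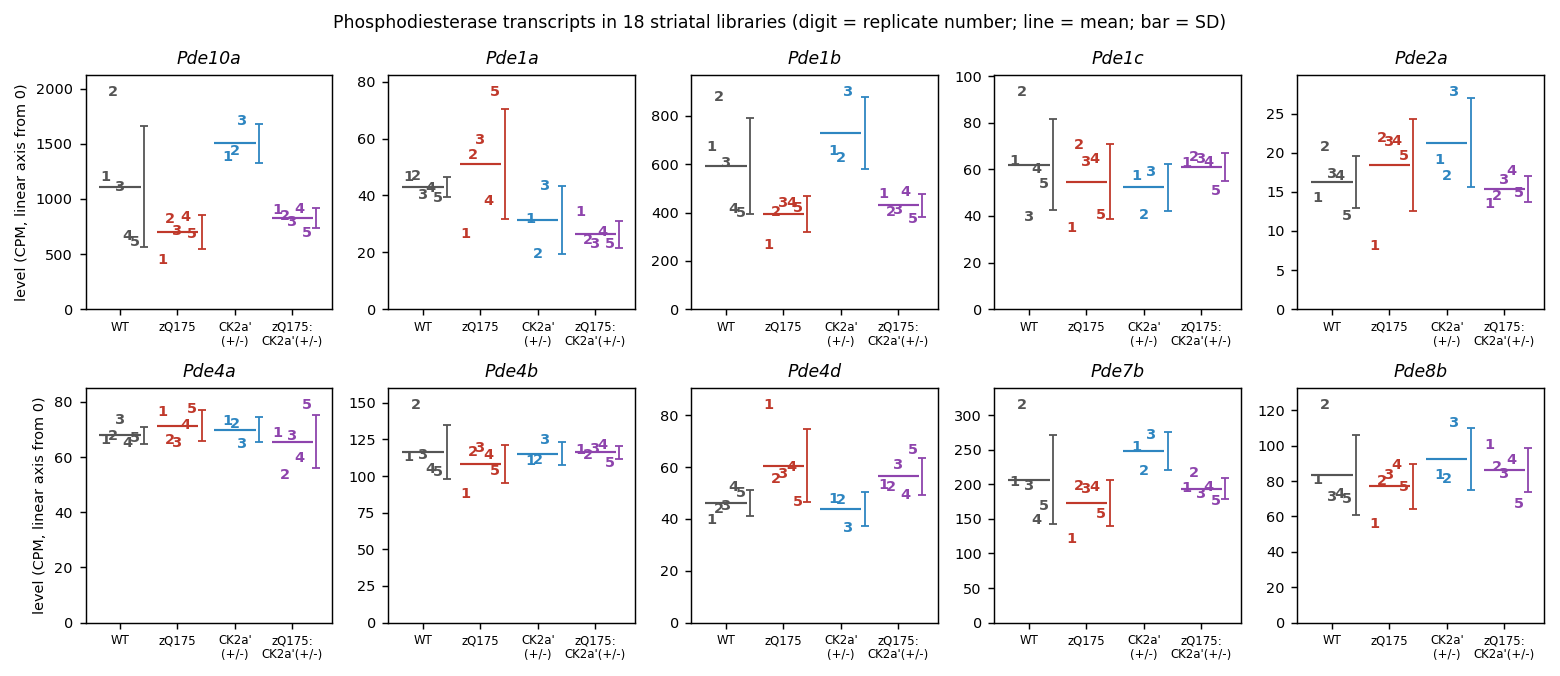
Level of each of the 10 genes (y axes, CPM, linear from 0) in the 18 libraries by genotype (x axes); each digit is the replicate number of 1 mouse, the line is the group mean and the bar at its right 1 SD. In Pde10a, Pde1b and Pde7b the CK2a'(+/-) mice stand above all zQ175:CK2a'(+/-) mice, while WT replicates 4 and 5 lie among the zQ175 values of Pde10a and Pde1b.

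Across comparisons, 3 of the 10 genes passed FDR 0.1 for the pooled zQ175 allele, 1 higher and 2 lower, where 4.9% of the 20914 genes tested were called (2.11% higher and 2.78% lower). At an unadjusted p under 0.05 the count was 4 of 10, Pde7b with them (16.2% of all genes), and DESeq2 called the same 3 (8.78% of its genes). In zQ175 against WT 0 of the 10 passed in edgeR (1.1% of all genes called), 3, Pde10a, Pde1b and Pde4d, had an unadjusted p under 0.05 (13.9% of all genes), and DESeq2 called 2, Pde1b and Pde4d (5.15% of its genes). In zQ175:CK2a'(+/-) against CK2a'(+/-) edgeR called 0 of 10 (0.593% of all genes), 3, Pde10a, Pde1b and Pde4d, had an unadjusted p under 0.05 (9.19%), and DESeq2 called 1, Pde1b (1.63%). In that comparison 3 of the 10, Pde10a, Pde1b and Pde7b, were lower without overlap (4.48% of all genes) and 1, Pde4d, was higher without overlap (3.86%). In zQ175:CK2a'(+/-) against WT edgeR called 0 of 10 (0.0143% of all genes), 3, Pde1a, Pde1b and Pde4d, had an unadjusted p under 0.05 (9.13%), and DESeq2 called 0 (0.722%). The comparisons against WT share the WT mice, and the pooled value uses the same libraries as its 2 parts. The median log2 fold change of the 10 for the pooled allele was -0.08, beside 0.01 for all genes.

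The loss of 1 CK2a' allele alone moved none of the 10 past the threshold. In CK2a'(+/-) against WT edgeR and DESeq2 each called 0 of 10 (0.0143% and 0.0293% of their genes), and 0 had an unadjusted p under 0.05 (4.48%). Pde10a was at 1507 ± 176 CPM (SD, n = 3) in CK2a'(+/-) and 1109 ± 549 CPM (SD, n = 5) in WT, a log2 difference of 0.44 with an interval of -0.10 to 0.98, which ran from 0.29 (without WT replicate 5) to 0.76 (without WT replicate 2) with 1 library left out. The other 9 differences lay between -0.46 (Pde1a) and 0.39 (Pde2a). Pde1b was at 0.29, Pde7b at 0.27, Pde8b at 0.15, Pde4a at 0.04, Pde4b at -0.02, Pde4d at -0.07 and Pde1c at -0.25. With 1 library left out, Pde1b ran from 0.11 to 0.48 and Pde7b from 0.17 to 0.47. Pde2a then ran from 0.16 to 0.53 and Pde1c from -0.37 to -0.05. The interaction, which asks whether the zQ175 change differed between CK2a' genotypes, was called for 0 of 10 by either tool (0.00478% of all genes in edgeR and 0.0747% in DESeq2), and 0 had an unadjusted p under 0.05 (5.39%). For Pde10a the interaction was -0.20 (SE 0.35, interval -0.92 to 0.52) and for Pde1b it was -0.16 (SE 0.27, interval -0.73 to 0.40). Both intervals were wide enough to hold a difference as large as the pooled change, -0.77 in Pde10a and -0.68 in Pde1b. With 1 library left out the interaction of Pde10a ran from -0.52 (without WT replicate 2) to -0.05 (without WT replicate 5), and that of Pde1b from -0.35 (without WT replicate 2) to 0.02 (without CK2a'(+/-) replicate 3).

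**Figure D3:**
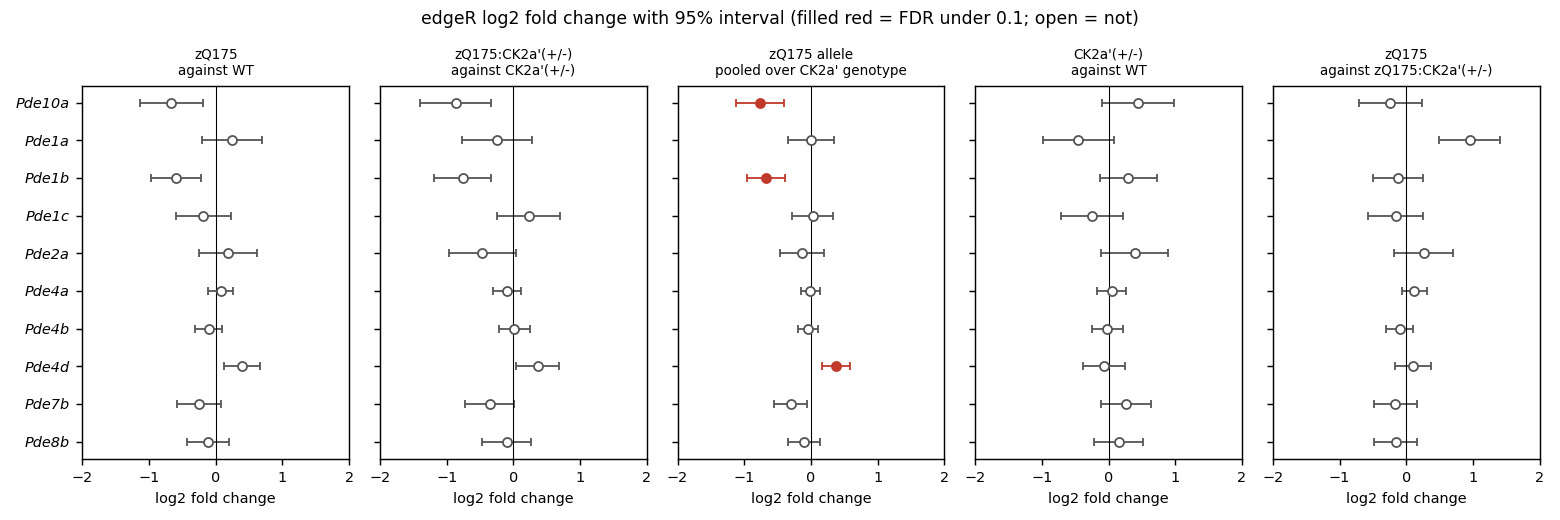
edgeR log2 fold change (x axes) of the 10 genes (y axis) in 5 comparisons, as points with 95% intervals; filled red points passed FDR 0.1 and open points did not. Red points stand only in the pooled comparison, at -0.77 for Pde10a, -0.68 for Pde1b and 0.38 for Pde4d, and the open point farthest from 0 is Pde1a at 0.95 in zQ175 against zQ175:CK2a'(+/-).

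Pde1a (ENSMUSG00000059173, chr2:79834453-80129458 on the minus strand) encodes a calmodulin-activated enzyme that prefers cGMP. It was higher in 4 of the 5 zQ175 mice than in every zQ175:CK2a'(+/-) mouse. WT mice lay close together at 46.5, 46.7, 40.0, 42.6 and 39.2 CPM. The zQ175 mice spread over 26.5, 54.1, 59.5, 38.0 and 76.4 CPM. CK2a'(+/-) mice had 31.7, 19.4 and 43.2 CPM, and zQ175:CK2a'(+/-) mice 34.2, 24.4, 23.0, 27.2 and 23.0 CPM, all below every WT mouse. Only zQ175 replicate 1, at 26.5 CPM, lay within the zQ175:CK2a'(+/-) range.

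In zQ175 against zQ175:CK2a'(+/-) the log2 difference of Pde1a was 0.95 (SE 0.22, interval 0.49 to 1.41), a level 93.0% higher. The unadjusted p was 0.000301, the adjusted p was 0.371 in edgeR and 0.0206 in DESeq2, and Pde1a was the single gene of the 10 that DESeq2 called there (0 of 10 in edgeR, which called 0.0143% of all genes; 0.146% in DESeq2; 1 of 10 and 6.27% at an unadjusted p under 0.05). Without zQ175 replicate 1 the difference was 1.11 and the edgeR adjusted p 0.0265. In zQ175:CK2a'(+/-) against WT the Pde1a difference was -0.71 (SE 0.22, adjusted p = 0.344), without overlap (0.899% of all genes were lower without overlap). In CK2a'(+/-) against WT it was -0.46 (SE 0.25, interval -0.99 to 0.07), and the interaction was -0.49 (SE 0.33, interval -1.18 to 0.20). Both rest on 3 CK2a'(+/-) mice that spread widely. The first was -0.75 without CK2a'(+/-) replicate 3 and -0.20 without CK2a'(+/-) replicate 2, and the interaction was -0.19 and -0.75 in the same order. Pde1a also belongs to a set of genes that the study picked from these same libraries for its response to CK2a' loss, so its direction here is not independent of that choice. In edgeR, zQ175 against zQ175:CK2a'(+/-) had 5 of 9 tested cortical and 3 of 5 thalamic markers higher at an unadjusted p under 0.05. Lower at that threshold were 4 of 5 choroid plexus, 3 of 4 oligodendrocyte and 3 of 5 microglia markers. The share of all genes there was 6.27% in either direction. The other marker lists had at most 1 each way, and the part of these lists was not tested. The cortical neuron sum was 147 to 402 CPM in zQ175 and 99.8 to 195 CPM in zQ175:CK2a'(+/-). It was highest in zQ175 replicate 5, which also had the highest Pde1a, but second highest (304 CPM) in zQ175 replicate 1, which had the lowest Pde1a of its group, and its part in the difference was not tested.

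The remaining 5 genes gave no call in any comparison by edgeR or DESeq2. Pde4a (ENSMUSG00000032177, chr9:21165714-21213248) and Pde4b (ENSMUSG00000028525, chr4:102087543-102607259), cAMP-selective like Pde4d, were the steadiest of the 10, with a biological coefficient of variation of 10.7% and 11.7% against a median of 23.0% over all genes. Pde4a had group means of 67.9 ± 3.16 CPM in WT, 71.3 ± 5.69 in zQ175, 69.9 ± 4.60 in CK2a'(+/-) and 65.6 ± 9.61 in zQ175:CK2a'(+/-), and Pde4b had 117 ± 18.5, 108 ± 12.9, 115 ± 7.92 and 116 ± 4.69 CPM in the same order. Their pooled intervals were -0.15 to 0.13 for Pde4a and -0.20 to 0.11 for Pde4b, which do not hold the 0.38 of Pde4d. The per-length ratio of Pde4d to Pde4a was 0.434 ± 0.0575 in WT, 0.543 ± 0.114 in zQ175, 0.398 ± 0.0340 in CK2a'(+/-) and 0.551 ± 0.0493 in zQ175:CK2a'(+/-).

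Pde8b (ENSMUSG00000021684, chr13:95024454-95250336), a high-affinity cAMP enzyme, ranged from 69.6 to 123 CPM in WT, with a median of 72.9, and from 56.0 to 89.3 CPM in zQ175, with a median of 79.8. Its pooled difference was -0.11 (interval -0.35 to 0.14). Pde1c (ENSMUSG00000004347, chr6:56069804-56652487) ranged from 39.6 to 93.2 CPM in WT and from 35.0 to 70.6 CPM in zQ175, with a pooled difference of 0.02 (interval -0.29 to 0.33). Pde2a (ENSMUSG00000110195, chr7:101421691-101512827), the cGMP-stimulated enzyme, rested on 173 to 416 counts a library and ranged from 12.0 to 20.7 CPM in WT and from 8.11 to 21.8 CPM in zQ175. Its CK2a'(+/-) mice had 19.0, 17.1 and 27.8 CPM and its zQ175:CK2a'(+/-) mice 13.4, 14.5, 16.5, 17.6 and 14.9 CPM, and its interaction had the lowest unadjusted p of the 10 (0.0547, log2 value -0.65, adjusted p = 0.916), a value that was -0.42 without CK2a'(+/-) replicate 3.

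Pde10a and Pde1b followed the markers of projection neurons from library to library. In bulk tissue, fewer cells of a type and less RNA in each cell cannot be told apart. The 9 markers, Drd1, Drd2, Ppp1r1b, Penk, Tac1, Adora2a, Rgs9, Bcl11b and Foxp1, were all lower for the pooled zQ175 allele, 6 of them past FDR 0.1 (Drd1, Drd2, Ppp1r1b, Penk, Adora2a and Rgs9), with a median log2 fold change of -0.70 beside -0.77 for Pde10a and -0.68 for Pde1b. For each 1000 CPM of the summed markers, Pde10a was at 324 ± 57.3 CPM in WT (264 to 412), 344 ± 22.8 in zQ175 (323 to 379.6), 391 ± 38.0 in CK2a'(+/-) and 339.6 ± 10.8 in zQ175:CK2a'(+/-). On the same scale Pde1b was at 180.4 ± 4.61 CPM in WT, 195 ± 20.5 in zQ175, 187 ± 3.24 in CK2a'(+/-) and 176 ± 8.82 in zQ175:CK2a'(+/-). The zQ175 values of both genes fell within or above the WT range on this scale, apart from the lowest Pde1b value, 168 against 174 in WT. Pde7b was at 63.7 ± 6.77 CPM on that scale in WT and 86.0 ± 10.2 in zQ175, where every zQ175 mouse (75.3 to 102) lay above every WT mouse (55.0 to 73.4). Pde8b was at 26.1 ± 4.56 in WT and 38.5 ± 5.23 in zQ175, again without overlap (21.7 to 31.2 and 33.1 to 47.2), and Pde4b was at 30.7 to 44.8 in WT and 47.9 to 74.1 in zQ175. These 3 of the 10 were higher without overlap, where 9.07% of the 20914 genes were, and 0 were lower (0.0335% of all genes). The summed markers themselves averaged 3277 CPM in WT and 2053 CPM in zQ175, so that a gene with the same CPM in both groups is higher on this scale, and none of the 3 passed the threshold in CPM.

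**Figure D4:**
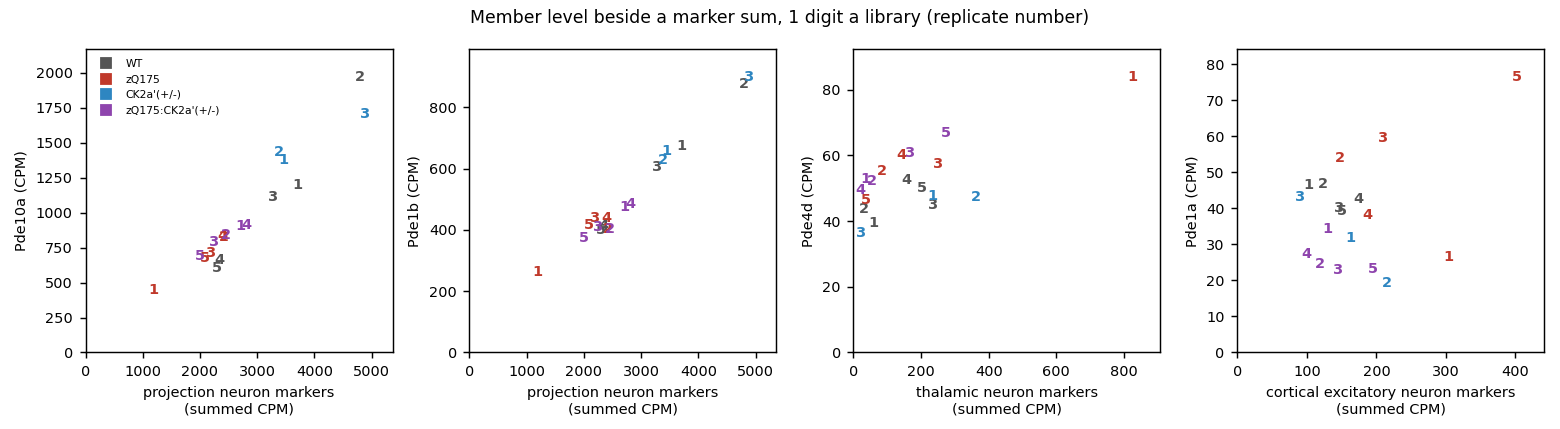
Level of Pde10a, Pde1b, Pde4d and Pde1a (y axes, CPM) against the summed level of a marker list (x axes, CPM), 1 digit a library with its replicate number, coloured by genotype. Pde10a and Pde1b rise with the projection neuron sum through all 4 genotypes; Pde4d is highest in zQ175 replicate 1, whose thalamic sum is 825 CPM; Pde1a is highest in zQ175 replicate 5, whose cortical sum is 402 CPM.

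Of all 20914 genes, the 5 whose log2 CPM followed Pde10a most closely over the 18 libraries were Adcy5 (Pearson r 0.989, Spearman rho 0.955), Drd2 (0.984 and 0.957), Rasd2 (0.975 and 0.963), Syndig1l (0.973 and 0.959) and Htr1b (0.970 and 0.955). Adcy5 is the main adenylyl cyclase of projection neurons and Drd2 the dopamine receptor that inhibits it. With the group means taken out the r of Adcy5 was 0.982 over the 18 libraries, among which the WT mice spread the most in Pde10a. Pde1b ranked 9 in that order (r 0.965), Pde7b 59 (0.926) and Pde4d 20811 (-0.764). The libraries share their dissection and their uneven level of projection neuron markers, and these values are descriptions. For Pde1a the 5 closest genes were Mpped1 (0.862 and 0.820), Hnrnpk (0.831 and 0.798), Vxn (0.814 and 0.742), Tmem178 (0.806 and 0.773) and Ctnnbl1 (0.806 and 0.806).

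The per-length ratio of Pde10a to Pde1b was below 1 in every genotype, at 0.754 ± 0.119 in WT, 0.747 ± 0.0778 in zQ175, 0.880 ± 0.0824 in CK2a'(+/-) and 0.809 ± 0.0407 in zQ175:CK2a'(+/-). The ratio of Pde1a to Pde1b was 0.0699 ± 0.0194 in WT, 0.115 ± 0.0337 in zQ175, 0.0381 ± 0.00894 in CK2a'(+/-) and 0.0550 ± 0.00585 in zQ175:CK2a'(+/-).

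The other genes of the pathway were read for the pooled zQ175 allele beside the 4.9% of all genes called. Of 11 further catalytic phosphodiesterase genes 8 were tested and 1 passed, Pde8a, the cAMP-selective relative of Pde8b (log2 fold change -0.39, SE 0.11, adjusted p = 0.0578). Of 12 genes of cyclic nucleotide synthesis 1 passed, Adcy5 (-0.62, SE 0.14, adjusted p = 0.0207), and of 14 effectors 1 passed, Prkar2a, a regulatory subunit of protein kinase A, which was higher (0.32, SE 0.09, adjusted p = 0.0682). Of 7 receptors and G proteins upstream of cAMP 3 passed, all lower, namely Adora2a, the adenosine receptor of the indirect pathway (-1.17, SE 0.18, adjusted p = 0.00224), Drd2 (-0.69, SE 0.16, adjusted p = 0.0262) and Drd1, the dopamine receptor of the direct pathway (-0.70, SE 0.17, adjusted p = 0.0328). These 3 receptors are also among the 9 projection neuron markers above. Of the 3 calmodulin genes 0 passed, and 1 was lower at an unadjusted p under 0.05. In zQ175 against WT only Adora2a passed among these 5 lists.

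Markers of other cells moved with genotype beside these results. For the pooled allele 2 of 4 oligodendrocyte markers (Mbp and Mobp), 1 of 5 astrocyte markers (Aldh1l1) and 0 of 6 interneuron markers (3 at an unadjusted p under 0.05) were lower past FDR 0.1, and 1 of 9 tested cortical markers, Neurod2, was higher. Of the thalamic, choroid plexus, microglia and endothelium and mural lists none passed, with 4 of 5, 0 of 5, 1 of 5 and 0 of 6 members higher. The oligodendrocyte sum was 3953 to 5229 CPM in WT and 2527 to 3867 CPM in zQ175, without overlap. Their part in the changes of Pde10a, Pde1b and Pde4d was not tested.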

How the data were processed

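Libraries were made with a stranded total RNA kit. The authors used Trimmomatic, then HISAT2 2.1.0 on GRCm38, dropped duplicated mappings, unmapped reads and poorly mapped reads, and deposited raw counts per gene (Subread 1.6.2). The strand setting of that counting is not given in the sources used here. The deposited exon lengths, other values in bases, served for levels per kilobase. Counts were fitted in edgeR 4.0.16 (quasi-likelihood test, TMM, filterByExpr) over all 18 libraries by genotype, and p-values were adjusted by Benjamini-Hochberg over 20914 genes at FDR 0.1. CPM for likeness was logged with a prior count of 2. DESeq2 1.42.0 was an alternative, as were no filter, the compared groups alone, other size factors, a robust fit, an Xist covariate, a replicate block, FDR 0.05 and leaving out each library. Leaving out zQ175 replicates 1 and 5 was chosen after seeing the data. Each SE was derived from edgeR's log2 fold change and F statistic, and the 95% intervals from that SE and a t quantile. Symbols were matched for 55154 of 55421 identifiers, and columns were mapped to genotypes by name. The mice are separate animals, so p-values measure the spread between mice. All 10 members were tested in every comparison, and those not described singly are given there by count. Other lists are given by counts, naming those past FDR 0.1. Pde10a and Pde1a were each given their 5 closest genes. Some genes of the planned marker and receptor lists are not reported here, and the counts and sums of those lists were computed without them. The members and lists were chosen with earlier results of these data known. Counting precision follows from the depth of 13612381 to 22702547 counts a library.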

Additional observations from a re-analysis of the deposited data

Results flagged for a closer look

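In 30 groups of 5 mice (10 genes in 3 genotypes), 5 single values stood apart, some of them in the same library. The rule was Dixon's test of the gap to the nearest mouse over the range (above 0.71), and chance flags about 1 in 20 groups. zQ175 replicate 1 was low in Pde1b, at 264 CPM against 404 to 440 in the other 4 mice, and in Pde2a, at 8.11 CPM against 19.5 to 21.8. It is also the library with the lowest projection neuron sum (1185 CPM) and the highest thalamic sum (825 CPM). WT replicate 2 was high in Pde4b, at 148 CPM against 103 to 114, and in Pde8b, at 123 CPM against 69.6 to 80.5, and had the highest projection neuron sum of WT (4788 CPM). zQ175:CK2a'(+/-) replicate 5 was low in Pde1c, at 50.5 CPM against 62.7 to 65.1. The part of those sums in the values was not tested.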

How the results depend on the processing

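For the pooled zQ175 allele the members called ranged from 2 to 4. They were 4 with no filter on low counts and without WT replicate 4, Pde7b being the fourth. The fit of only the 2 groups compared has no pooled value. Under each of the other alternatives Pde10a and Pde1b passed FDR 0.1 and were lower, and Pde4d was higher. Pde4d lost its call under the replicate block (0.37, adjusted p = 0.118), at FDR 0.05 and without WT replicate 1 or CK2a'(+/-) replicate 3. Counts of members in the single comparisons moved. With DESeq2 they were 2 in zQ175 against WT, 1 in zQ175 against zQ175:CK2a'(+/-) and 1 in zQ175:CK2a'(+/-) against CK2a'(+/-). With no filter on low counts they were 2 in zQ175 against WT (Pde10a and Pde1b), 1 in zQ175:CK2a'(+/-) against WT (Pde1a), 1 in zQ175 against zQ175:CK2a'(+/-) (Pde1a) and 2 in zQ175:CK2a'(+/-) against CK2a'(+/-) (Pde10a and Pde1b). With only the 2 groups compared, the last was 3 (Pde10a, Pde1b and Pde7b), and with zQ175 replicates 1 and 5 left out it was 1 (Pde1b). With 1 library left out, members called ranged from 0 to 2 in zQ175 against WT (1 without WT replicate 4, 2 without WT replicate 5), from 0 to 1 in zQ175 against zQ175:CK2a'(+/-) (1 without zQ175 replicate 1) and from 0 to 2 in zQ175:CK2a'(+/-) against CK2a'(+/-) (2 without WT replicate 2, 1 without WT replicate 4, WT replicate 5 or zQ175 replicate 1). The cause was not tested.

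Of 1870 values of the 10 genes over all alternatives 73 changed sign, none of them past FDR 0.1 with or without the alternative. Among the values printed these were the pooled changes of Pde1c and Pde4a under an Xist covariate (-0.040 and 0.0066), of Pde4b without zQ175 replicates 1 and 5 (0.0081), and, with 1 library left out, of Pde1c (-0.054 to 0.10) and Pde4a (-0.049 to 0.022), and the interaction of Pde1b (-0.35 to 0.016). In CK2a'(+/-) against WT they were Pde4a and Pde4b under an Xist covariate (-0.012 and 0.033) and, with 1 library left out, Pde4b (-0.075 to 0.086), Pde4d (-0.14 to 0.043) and Pde8b (-0.015 to 0.33).

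The labels do not say whether shared replicate numbers pair the mice, and the RNA levels showed no strong pairing. Over 24 pairs of libraries with the same number, deviations from the group means correlated between -0.136 and 0.120, and 1 of 18 libraries was closest to another of its own number. With the replicate block 2 members passed for the pooled allele, Pde10a (-0.67, adjusted p = 0.0754) and Pde1b (-0.63, adjusted p = 0.0560).

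Over all genes the counts behind the background shares moved more than those of the members. For the pooled allele 1024 genes passed, between 469 (FDR 0.05) and 1507 (DESeq2), and 348 to 1161 with 1 library left out. For zQ175 against WT 230 passed, between 0 (only the 2 groups compared) and 847 (DESeq2), and 0 to 587 with 1 left out. For zQ175:CK2a'(+/-) against CK2a'(+/-) 124 passed, between 12 (replicate block) and 461 (only the 2 groups compared), and 6 to 221 with 1 left out. The other comparisons had 1 to 3 genes and at most 124 under an alternative. Pde10a rests on 9599 to 35294 counts a library, so that counting error is small beside its spread of 606 to 1971 CPM over the WT mice, while Pde2a rests on 173 to 416.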
